A study of Rattus norvegicus with 23 samples.

Results

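Cdkn1a, Mdm2, Ccng1, Phlda3, Fas, Plk2, Aen, Bax and Zmat3 are 9 genes that p53 activates directly in mammalian cells. They were taken by name from the authors' deposited tables and followed by identifier in the raw counts, as 9 of the 32552 genes counted in differentiating CG4 cells. Of these, 8 are also among the 15219 genes counted in every library, and Zmat3 was analysed here in the differentiating CG4 cells alone. The series holds 23 RNA-seq libraries from rat, in 6 groups. CG4 is an immortalized line of rat brain oligodendroglia. Its cells carried a CAG vector with EGFP and either myc-tagged Zfp488, tagged Nkx2.2 or no further gene (control), and all 3 groups were differentiated for 3 days, with 4 libraries each. Wild-type CG4 cells without a vector, kept proliferating, gave 3 libraries. Primary wild-type oligodendroglia came from rat brain, by shake-off from mixed glia, with 4 libraries after 3 days of differentiation and 4 of proliferating cells. Proliferating cells were kept in medium with bFGF and PDGF-AA, and differentiating cells were moved to medium with thyroid hormones and CNTF. The proliferating CG4 libraries were read at 100 nt and all others at 150 nt.

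p53 is a transcription factor that is made continually and broken down just as fast. Mdm2, a ubiquitin ligase, marks it for degradation, and Mdm4 holds its activity down. DNA damage or other stress releases p53, which then activates genes that halt the cell cycle, repair DNA, feed back on p53 itself or open the way to apoptosis. Because p53 is set mostly by protein stability, the level of its own mRNA is a poor guide to its activity, and its targets are the usual readout in RNA. Most of the targets also respond to other factors.

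p53 binds a pair of decamer motifs with the core CWWG between purines and pyrimidines, each called a p53 decamer here. RefSeq promoter windows in the GRCr8 build, from 250 bases before to 50 bases after the gene start, were found for 7 of the 9 genes, all except Bax and Zmat3. Windows are shown for the 4 genes that were higher with Zfp488 and for Fas and Aen, which were lower with Nkx2.2, because the comparisons below turn on these genes. Each reads 5′ to 3′ along the gene's strand, and capitals mark a match to the decamer. They lie at chr20:7150682-7150981 (plus strand) for Cdkn1a, chr7:55200742-55201041 (minus strand) for Mdm2, chr10:25684827-25685126 (minus strand) for Ccng1, chr13:49744753-49745052 (plus strand) for Phlda3, chr1:241211905-241212204 (plus strand) for Fas and chr1:142224283-142224582 (plus strand) for Aen.
Cdkn1a: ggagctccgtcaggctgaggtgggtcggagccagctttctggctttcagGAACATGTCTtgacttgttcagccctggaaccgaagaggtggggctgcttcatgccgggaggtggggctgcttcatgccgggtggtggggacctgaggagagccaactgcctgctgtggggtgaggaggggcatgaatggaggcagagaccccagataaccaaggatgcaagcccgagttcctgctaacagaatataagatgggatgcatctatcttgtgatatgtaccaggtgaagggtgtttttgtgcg
Ccng1: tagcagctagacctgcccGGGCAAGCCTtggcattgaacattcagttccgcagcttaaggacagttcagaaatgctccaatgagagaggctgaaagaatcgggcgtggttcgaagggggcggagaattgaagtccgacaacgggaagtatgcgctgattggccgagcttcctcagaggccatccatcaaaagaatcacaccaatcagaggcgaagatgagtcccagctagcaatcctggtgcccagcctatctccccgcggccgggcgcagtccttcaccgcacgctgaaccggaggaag
Phlda3: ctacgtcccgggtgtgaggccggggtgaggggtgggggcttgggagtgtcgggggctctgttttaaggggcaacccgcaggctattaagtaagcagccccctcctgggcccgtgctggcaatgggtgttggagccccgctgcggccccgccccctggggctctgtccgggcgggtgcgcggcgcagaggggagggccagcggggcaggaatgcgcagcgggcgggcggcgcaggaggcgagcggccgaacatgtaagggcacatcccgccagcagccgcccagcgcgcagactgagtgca
Mdm2: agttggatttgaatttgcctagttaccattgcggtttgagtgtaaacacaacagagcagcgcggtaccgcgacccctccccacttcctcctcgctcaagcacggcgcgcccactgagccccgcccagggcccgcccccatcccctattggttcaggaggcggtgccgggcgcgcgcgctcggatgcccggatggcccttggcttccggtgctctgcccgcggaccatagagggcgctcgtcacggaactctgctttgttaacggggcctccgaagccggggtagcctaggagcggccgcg
Fas: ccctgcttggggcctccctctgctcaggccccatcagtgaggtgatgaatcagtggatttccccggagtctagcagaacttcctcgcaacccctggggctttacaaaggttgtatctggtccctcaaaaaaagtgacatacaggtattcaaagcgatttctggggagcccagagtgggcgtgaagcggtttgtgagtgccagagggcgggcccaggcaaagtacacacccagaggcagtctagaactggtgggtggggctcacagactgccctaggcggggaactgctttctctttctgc
Aen: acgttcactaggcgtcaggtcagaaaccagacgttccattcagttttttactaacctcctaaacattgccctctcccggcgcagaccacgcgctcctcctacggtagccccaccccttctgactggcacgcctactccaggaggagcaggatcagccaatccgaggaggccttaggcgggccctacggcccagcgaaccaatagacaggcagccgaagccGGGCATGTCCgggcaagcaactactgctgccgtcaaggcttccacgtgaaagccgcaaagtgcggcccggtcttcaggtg
One decamer stood in each of Cdkn1a (GAACATGTCT, bases -201 to -192 from the start), Ccng1 (GGGCAAGCCT, bases -232 to -223) and Aen (GGGCATGTCC, bases -30 to -21). Searched on both strands with no mismatch, the decamer was in 3 of 7 windows of these genes and in 7.98% of 33465 rat promoter windows. A pair of decamers at most 13 bases apart, both without a mismatch, was in none of the 7 windows and in 0.0598% of all windows. A pair in which either decamer had a mismatch was not counted, so this does not show that a window lacks a p53 site. The 4 genes that were higher with Zfp488 thus included 2 with a decamer in this window (Cdkn1a and Ccng1) and 2 without (Mdm2 and Phlda3). Of the 2 genes that were lower with Nkx2.2, Aen had a decamer and Fas had none. Of general promoter motifs, searched on both strands, GGGCGG was in 5 of the 7 windows (33.1% of all windows), CCAAT in 4 (37.5%) and TATAAA in 0 (14.2%). A match describes the letters in the window, and its use by p53 was not measured in these samples.

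Levels are given throughout as CPM, counts per 1000000 of the genes counted in every library, after TMM scaling over the 23 libraries. Fold changes are log2 values ± SE from edgeR's quasi-likelihood fits. Each SE was derived from the test, as the absolute log2 value divided by the square root of its F statistic. P-values were adjusted by Benjamini-Hochberg over all genes tested, with a threshold of 0.05. Total counts per library ran from 20063345 to 49206479, and every one of the genes except Fas had at least 264 counts in each library in which it was analysed. In bulk RNA, fewer cells of a type and less RNA per cell cannot be told apart. The labels call the libraries of a group biological replicates, and a p-value here reflects no more than the spread among them. Olig1, Olig2 and Sox10, which mark oligodendroglia, summed to 2001 to 5418 CPM in the 23 libraries. The introduced genes were higher in their own groups: Zfp488 at 167 ± 28.8 against 42.5 ± 11.1 CPM in control, and Nkx2-2 at 1635 ± 315 against 272 ± 43.7 CPM in control (SD, n = 4 each). The labels do not say how the vectors' copies and the endogenous copies share these reads.

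Across the 6 groups the targets did not share 1 order of levels. Phlda3 spanned the widest range of group means, 16.4-fold, with Zfp488 CG4 cells highest and proliferating CG4 cells lowest. Plk2 spanned 14.4-fold, with proliferating primary cells highest and differentiating primary cells lowest. Cdkn1a spanned 12.3-fold, Aen 6.25-fold and Bax 2.70-fold, each with proliferating primary cells highest and proliferating CG4 cells lowest. Ccng1 (10.7-fold) and Fas (4.38-fold) were highest in differentiating primary cells and lowest in proliferating CG4 cells. Mdm2 spanned the least among the genes measured in all groups, 2.07-fold, with Zfp488 CG4 cells highest. Proliferating CG4 cells thus had the lowest mean of 6 of the 8 genes. Only the libraries of that group were read at the shorter length, so group and read length cannot be told apart there. Of the 40 pairs of neighbouring group means of these 8 genes, 13 did not overlap, and Ccng1 held 4 of them. Neither count was made over all genes, so neither sets these 8 genes apart from others. The library values of neighbours that overlapped cannot be put in order by these samples. With library totals in place of TMM, 16 pairs did not overlap.

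**Figure D1:**
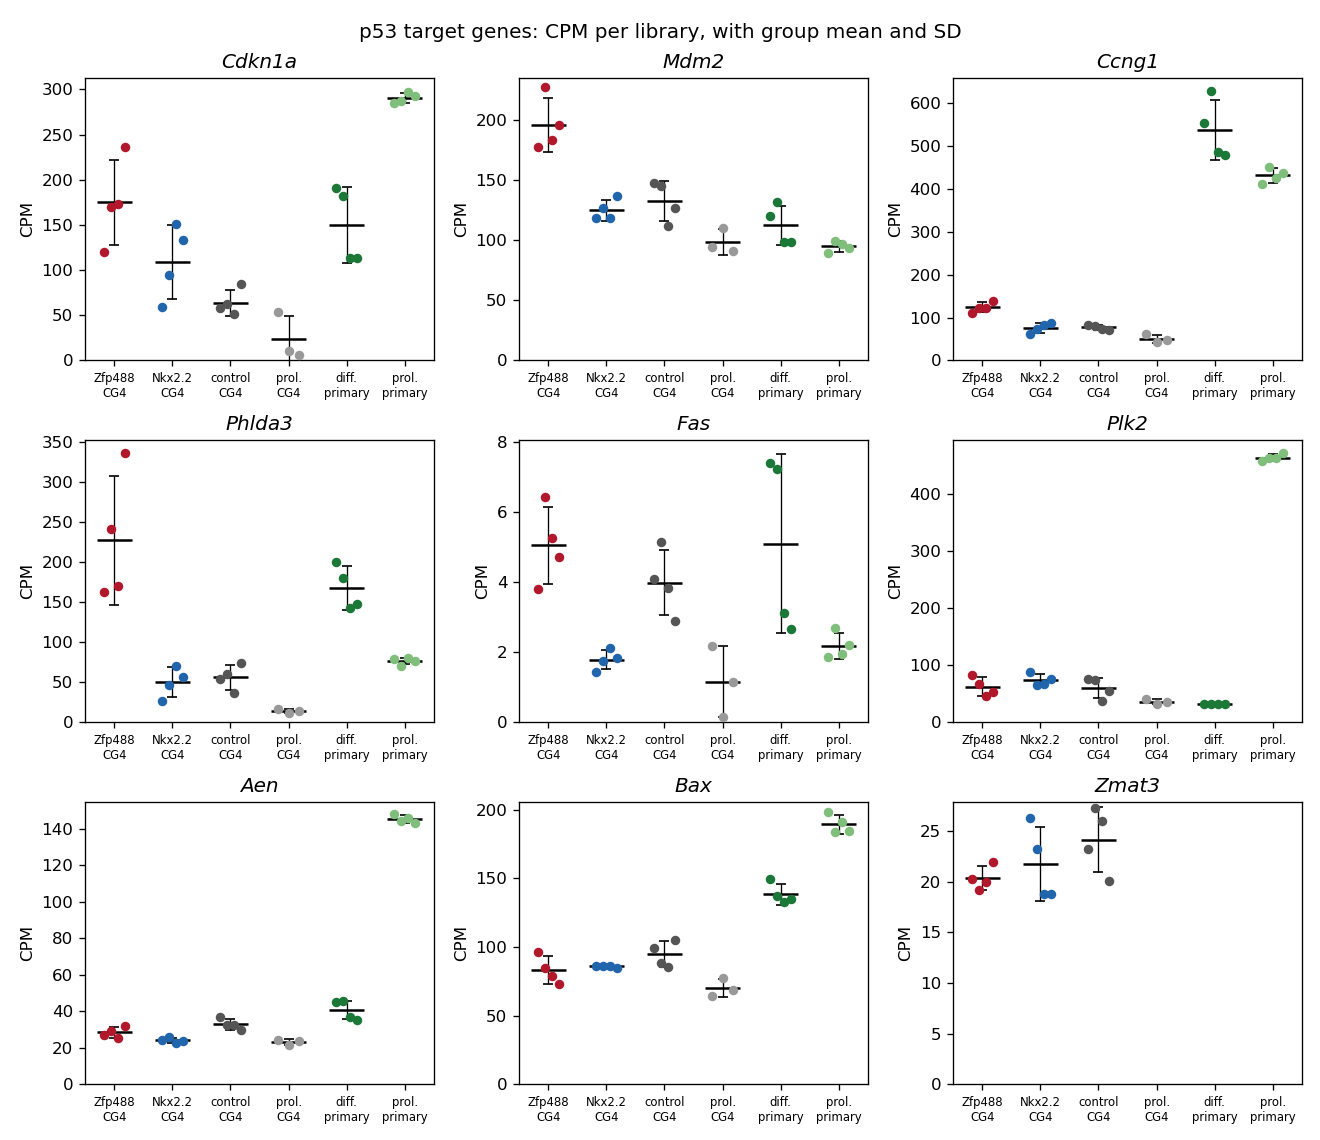
Level of each p53 target gene in CPM (linear axis from 0) in every library (points), with the group mean (line) and SD (bar), for the 6 groups, with 4 libraries per group and 3 of proliferating CG4 cells. Cdkn1a, Mdm2, Ccng1 and Phlda3 stand higher in the Zfp488 than in the control libraries, Plk2 and Aen are highest in proliferating primary cells, and Zmat3 is shown for the 3 groups in which it was analysed.

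The comparison of Zfp488 with control asks how differentiating CG4 cells respond to added Zfp488. Cdkn1a, Mdm2, Ccng1 and Phlda3 rose together, by between 0.57 and 2.02 on the log2 scale, and the other 5 targets did not pass the test. Fas, Bax and Aen, which act in cell death, were among those that did not pass. Against these 4 of 9 stand 9.04% of 14811 genes tested that changed in either direction, 5.89% that rose and 3.15% that fell. The median of the 9 genes was 0.36, beside -0.02 over all genes.

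Among the feedback genes, Mdm2 (ENSRNOG00000006304) stood at 177, 228, 184 and 196 CPM in the Zfp488 libraries, against 148, 145, 112 and 127 CPM in control. Every Zfp488 library lay above every control library. The difference was 0.57 ± 0.10 (adjusted p = 0.00728). Ccng1 (ENSRNOG00000003256) encodes cyclin G1, which recruits a phosphatase to Mdm2 and belongs to the same feedback loop. It stood at 111, 122, 123 and 139 CPM in the Zfp488 libraries, against 83.4, 79.8, 72.1 and 71.8 CPM in control, again with no overlap. It rose by 0.70 ± 0.11 (adjusted p = 0.00391).

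Cdkn1a (ENSRNOG00000000521) encodes p21, the inhibitor of cyclin-dependent kinases through which p53 halts the cell cycle. Its values were 119.9, 169.8, 173 and 236 CPM in the Zfp488 libraries, against 57.8, 62.4, 51.1 and 84.3 CPM in control. The groups did not overlap, and Zfp488 library 4 was the highest. Cdkn1a rose by 1.46 ± 0.28, or 2.75-fold (adjusted p = 0.00989). Phlda3 (ENSRNOG00000009068) encodes a small pleckstrin homology protein that competes with the kinase Akt for membrane lipids. It stood at 163, 241, 169.9 and 335 CPM with Zfp488, against 53.7, 60.8, 36.8 and 73.5 CPM in control. The lowest Zfp488 library was above the highest control library. Phlda3 rose by 2.02 ± 0.32, or 4.06-fold (adjusted p = 0.00391), the largest difference among the 9 targets in this comparison. Library by library with the same replicate number, the ratios of Zfp488 to control were 3.03 to 4.61 for Phlda3, 2.07 to 3.39 for Cdkn1a, 1.34 to 1.94 for Ccng1 and 1.20 to 1.65 for Mdm2. The authors' deposited table gives log2 fold changes of 2.03 for Phlda3, 1.47 for Cdkn1a, 0.71 for Ccng1 and 0.58 for Mdm2.

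The death genes among the targets gave no call. Fas (ENSRNOG00000019142), the death receptor of the cell surface, stood at 3.81, 6.44, 5.26 and 4.73 CPM in the Zfp488 libraries, against 4.09, 5.15, 3.83 and 2.90 CPM in control. The groups overlapped (0.36 ± 0.20, adjusted p = 0.299). Bax (ENSRNOG00000020876), which opens pores in the outer mitochondrial membrane, stood at 96.7, 84.9, 79.3 and 72.9 CPM with Zfp488, against 99.4, 88.8, 85.5 and 106 CPM in control. It lay below the same-numbered control library in 4 of 4 pairs, but the difference did not pass (-0.17 ± 0.09, adjusted p = 0.283). Aen (ENSRNOG00000018421), an exonuclease that digests DNA in apoptosis, stood at 26.9, 29.4, 25.6 and 31.9 CPM with Zfp488, against 36.9, 32.4, 32.5 and 29.9 CPM in control (-0.20 ± 0.09, adjusted p = 0.185). Here too the groups overlapped. Plk2, a polo-like kinase of centriole duplication, stood at 83.9, 67.1, 46.3 and 52.9 CPM with Zfp488, against 76.0, 73.6, 38.3 and 54.5 CPM in control (0.06 ± 0.22, adjusted p = 0.906). Zmat3 (ENSRNOG00000010119), a zinc finger protein that binds RNA, stood at 20.3, 19.2, 20.01 and 21.99 CPM with Zfp488, against 23.2, 27.3, 26.02 and 20.04 CPM in control (-0.23 ± 0.13, adjusted p = 0.276). Both overlapped with control.

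Mdm4, the inhibitor of p53, stood at 20.5 ± 1.77 CPM with Zfp488, against 25.7 ± 5.30 CPM in control (SD, n = 4 each), and did not pass (-0.31 ± 0.15, adjusted p = 0.224). Of 16 tested genes of p53 and its regulators, 0 rose and 1 fell. That was Atm, the kinase that signals double-strand breaks (-0.29 ± 0.08, adjusted p = 0.0460), and its call was lost without any 1 of the 8 libraries (adjusted p = 0.0519 to 0.122). The list's median was -0.16.

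Among 25 other p53 target genes tested, 4 rose and 0 fell, with a median of -0.02. Gadd45a, a stress sensor that binds cell cycle and repair proteins, rose by 1.75 ± 0.40 (adjusted p = 0.0195), at 173 ± 72.1 CPM with Zfp488 against 51.7 ± 11.4 CPM in control. Its call was lost without Zfp488 library 4 (adjusted p = 0.0671), control library 1 (0.0519) or control library 2 (0.0544). Plk3, a stress-activated kinase, rose by 1.303 ± 0.27 (adjusted p = 0.0135, and 0.0501 without Zfp488 library 4). The tetraspanin Cd82 rose by 1.02 ± 0.24 (adjusted p = 0.0232), a call lost without any 1 of 6 of the 8 libraries, the exceptions being Zfp488 libraries 1 and 3. The caspase activator Apaf1 rose by 0.42 ± 0.11 (adjusted p = 0.0361).

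In the list of Bcl-2 family and caspase partners, 3 of 18 rose and 0 fell, with a median of 0.13. Bcl2l1, whose protein Bcl-xL blocks Bax, rose by 0.47 ± 0.08 (adjusted p = 0.00749). Diablo, which frees caspases from their inhibitors, rose by 0.40 ± 0.09 (adjusted p = 0.0214). The call of Diablo was lost without Zfp488 library 4 (adjusted p = 0.0679), control library 2 (0.0574) or control library 3 (0.0636). Of 19 cell cycle genes that p53 lowers through p21, 0 rose and 0 fell with Zfp488, and their differences ran from -0.28 to 0.17 with a median of -0.01. Markers of neurons (6 of 6 measured) summed to 343 to 527 CPM in the Zfp488 libraries, against 152 to 345 CPM in control. Taken singly, 2 of them rose, 1 fell and 3 did not pass. Markers of fibroblasts and pericytes (3 of 7 measured) summed to 23.7 to 75.8 CPM with Zfp488, against 8.17 to 21.3 CPM in control, and 2 rose, 0 fell and 1 did not pass. No measured marker of either list was at 0 in a whole group, and the part of such cells in these differences was not tested.

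Added Nkx2.2 was set against the same 4 control libraries, which the Zfp488 comparison also used. Fas and Aen fell and the other 7 targets did not pass, beside 10.6% of 14811 genes that changed in either direction, 6.10% that rose and 4.48% that fell. The median of the 9 genes was -0.14, beside -0.01 over all genes. Fas stood at 1.45, 1.74, 2.11 and 1.85 CPM in the Nkx2.2 libraries, against 4.09, 5.15, 3.83 and 2.90 CPM in control. Every Nkx2.2 library lay below every control library, on 56 to 69 counts with Nkx2.2 and 130 to 188 counts in control. Fas fell by 1.15 ± 0.21 (adjusted p = 0.00397). Aen stood at 24.1, 26.1, 22.6 and 24.0 CPM with Nkx2.2, against 36.9, 32.4, 32.5 and 29.9 CPM in control. The groups were apart by a smaller margin, and Aen fell by 0.44 ± 0.09 (adjusted p = 0.00777).

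None of the 4 genes that rose with Zfp488 passed with Nkx2.2. Mdm2 stood at 118, 127, 118 and 137 CPM in the Nkx2.2 libraries (-0.08 ± 0.10, adjusted p = 0.666). Ccng1 stood at 61.4, 72.9, 82.1 and 87.9 CPM (-0.01 ± 0.11, adjusted p = 0.974). Phlda3 stood at 26.2, 46.9, 70.2 and 56.6 CPM (-0.17 ± 0.31, adjusted p = 0.783), and its ratio to the same-numbered control library ran from 0.488 to 1.91. These 3 genes overlapped with control. Cdkn1a stood at 58.9, 94.2, 151 and 133 CPM with Nkx2.2, higher than the same-numbered control in 4 of 4 pairs, with ratios from 1.02 to 2.95. Nkx2.2 library 1 was level with control and the other 3 were above every control library. The difference was 0.78 ± 0.28 (adjusted p = 0.0979), and it passed once the replicate numbers were blocked (0.72, adjusted p = 0.0133), in DESeq2 (0.0391) and without Nkx2.2 library 1 (0.99, adjusted p = 0.0223). The authors' deposited table gives 0.78 with an adjusted p of 0.0388.

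**Figure D2:**
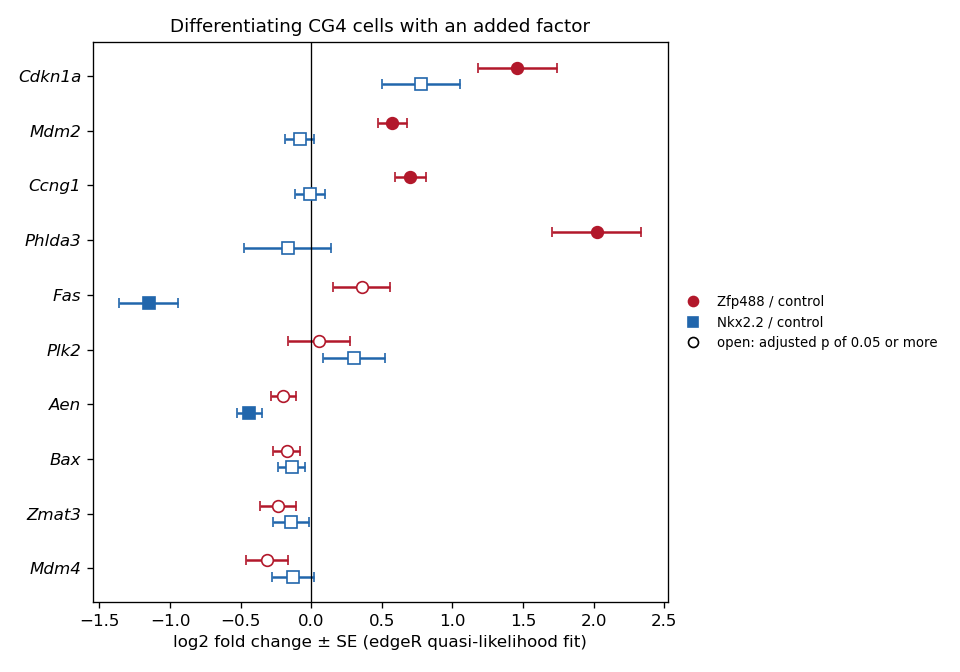
Log2 fold change ± SE (edgeR's quasi-likelihood fit) of the 9 target genes and Mdm4 with Zfp488 (circles) and Nkx2.2 (squares), each over the same 4 control libraries of differentiating CG4 cells, with filled symbols for an adjusted p under 0.05. Filled circles stand at Cdkn1a (1.46), Mdm2 (0.57), Ccng1 (0.70) and Phlda3 (2.02), and filled squares at Fas (-1.15) and Aen (-0.44).

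Bax stood at 86.3, 86.2, 86.6 and 84.8 CPM with Nkx2.2, its narrowest spread in any group, and differed from control by -0.14 ± 0.09 (adjusted p = 0.394). Plk2 stood at 88.9, 65.9, 67.3 and 76.0 CPM with Nkx2.2, against 76.0, 73.6, 38.3 and 54.5 CPM in control (0.31 ± 0.22, adjusted p = 0.418). Zmat3 stood at 26.3, 23.2, 18.8 and 18.8 CPM with Nkx2.2, against 23.2, 27.3, 26.02 and 20.04 CPM in control (-0.14 ± 0.12, adjusted p = 0.513). All 3 overlapped with control. Mdm4 stood at 23.4 ± 3.25 CPM with Nkx2.2, against 25.7 ± 5.30 CPM in control (SD, n = 4 each), a difference of -0.13 ± 0.15 (adjusted p = 0.640).

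With Nkx2.2, 0 of 16 genes of p53 and its regulators passed the test. Among the other targets 1 of 25 rose and 2 fell. Ei24, a protein of the endoplasmic reticulum, fell by 0.40 ± 0.08 (adjusted p = 0.00833). Rps27l, a ribosomal protein that binds Mdm2, fell by 0.39 ± 0.09 (adjusted p = 0.0174, lost without Nkx2.2 library 2, 0.0581, or 4, 0.0608). Steap3, a ferrireductase, rose by 0.70 ± 0.20 (adjusted p = 0.0440), a call lost without any 1 of 6 of the 8 libraries, the exceptions being control library 3 and Nkx2.2 library 1. In the Bcl-2 and caspase list 1 of 18 rose and 1 fell, and the one that rose was Bcl2l1 (0.50 ± 0.08, adjusted p = 0.00247). Of the 19 cell cycle genes 2 rose (Ccnb1 by 0.52 ± 0.14 and Birc5 by 0.47 ± 0.13, adjusted p = 0.0388 and 0.0412). All 19 differences were positive, from 0.11 to 0.54. Each of these 2 calls was lost without any 1 of 6 of the 8 libraries, the exceptions being control library 4 and Nkx2.2 library 4. Fibroblast and pericyte markers summed to 36.4 to 130.0 CPM with Nkx2.2, against 8.17 to 21.3 CPM in control. Taken singly, 1 of these markers rose, 0 fell and 2 did not pass, and their part was not tested.

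**Figure D3:**
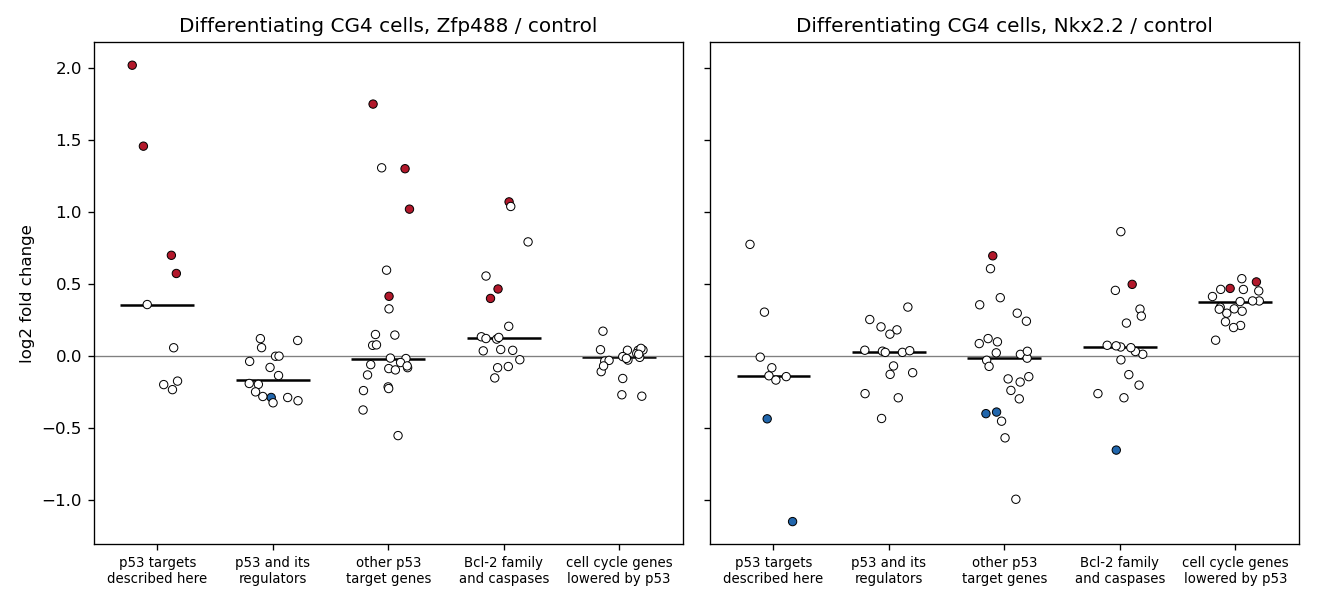
Log2 fold change of each tested gene (points) over the 4 control libraries of differentiating CG4 cells, for Zfp488 (left) and Nkx2.2 (right), by gene list, with the list median (line). Filled points passed an adjusted p of 0.05 (red higher, blue lower): with Zfp488 4 of 9 targets and 4 of 25 other targets, and with Nkx2.2 0 of 9 and 1 of 25, are red.

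Set directly against each other, Zfp488 and Nkx2.2 differed in 4 of the 9 targets, all higher with Zfp488, beside 25.3% of 14811 genes that differed in either direction and 13.3% that were higher with Zfp488. These were Phlda3 (2.19 ± 0.32, adjusted p = 0.000534), Fas (1.51 ± 0.21, adjusted p = 0.000389), Ccng1 (0.71 ± 0.11, adjusted p = 0.000798) and Mdm2 (0.66 ± 0.10, adjusted p = 0.000855). For all 4 the Zfp488 libraries lay above every Nkx2.2 library. That count was not made over all genes, so it does not set these 4 genes apart from others that passed. Fas thus stood apart between the factors although it did not pass for Zfp488 over control. Cdkn1a was higher with Zfp488 in 4 of 4 same-numbered pairs, but the groups overlapped and the difference of 0.68 ± 0.28 did not pass (adjusted p = 0.0884, and 0.00842 with the replicate block). For Aen the difference was 0.24 ± 0.09 (adjusted p = 0.0676, or 0.0439 when blocked). Plk2, Bax and Zmat3 did not pass (adjusted p = 0.429 to 0.799). Neuron markers summed to 343 to 527 CPM with Zfp488, against 156 to 214 CPM with Nkx2.2, with no overlap. Taken singly, 1 of these 6 markers was higher with Zfp488, 0 were lower and 5 did not pass (median 0.05). Sums of the other lists overlapped, at 23.7 to 75.8 against 36.4 to 130.0 CPM with Nkx2.2 for fibroblasts and pericytes, 899.98 to 1121 against 869 to 1530 CPM with Nkx2.2 for Schwann cells and 1109 to 2370 against 963 to 2920 CPM with Nkx2.2 for astrocytes. The part of such cells in the 4 differences was not tested.

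Of the other lists, 5 of 25 p53 targets were higher with Zfp488 than with Nkx2.2 and 1 was lower. Gadd45a differed by 2.05 ± 0.40 (adjusted p = 0.00326). Gdf15, a secreted stress cytokine, differed by 1.88 ± 0.45 (adjusted p = 0.00960), at 4.78 ± 2.68 CPM with Zfp488 against 1.32 ± 0.583 CPM with Nkx2.2. Steap3 was the lower one (-0.83 ± 0.20, adjusted p = 0.0105). Of the 18 Bcl-2 and caspase genes 3 were higher, among them Diablo (0.53 ± 0.09, adjusted p = 0.00176). Among the 16 regulators 2 were higher and 2 lower. Of the 19 cell cycle genes 7 were lower with Zfp488 than with Nkx2.2, and all 19 differences were negative (-0.72 to -0.03). Mki67, the proliferation marker, stood at 65.6 ± 13.1 CPM with Zfp488 against 109 ± 19.2 CPM with Nkx2.2 (-0.72 ± 0.15, adjusted p = 0.00457). The scaling bears on these counts: with library totals in place of TMM, 28.2% of the called genes were higher with Zfp488 rather than 52.6%, and the all-gene median was -0.14 rather than -0.01.

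In CG4 cells, differentiation was read by setting the 4 control libraries against the 3 proliferating ones. Differentiation state, vector and read length differ together here and cannot be told apart. Of the 8 targets measured, 7 rose and Cdkn1a did not pass, beside 65.8% of 12486 genes that changed in either direction, 32.5% that rose and 33.2% that fell. The median of the 8 was 0.69, beside 0.01 over all genes. Phlda3 stood at 53.7, 60.8, 36.8 and 73.5 CPM in differentiating control cells, against 16.4, 11.4 and 13.9 CPM in proliferating cells. The groups were far apart, and Phlda3 rose by 2.04 ± 0.25 (adjusted p = 0.000189). Ccng1 stood at 71.8 to 83.4 CPM in control, against 61.2, 43.2 and 46.5 CPM in proliferating cells, with no overlap, and rose by 0.63 ± 0.15 (adjusted p = 0.00520). Mdm2 stood at 112 to 148 CPM in control, against 94.3, 111 and 90.8 CPM in proliferating cells. The ranges nearly met, and Mdm2 rose by 0.45 ± 0.14 (adjusted p = 0.0188).

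The death genes among the targets rose too. Aen stood at 36.9, 32.4, 32.5 and 29.9 CPM in differentiating control cells, against 24.3, 21.5 and 23.9 CPM in proliferating cells, and rose by 0.52 ± 0.13 (adjusted p = 0.00671). Bax stood at 85.5 to 106 CPM in control, against 64.1, 77.3 and 68.8 CPM in proliferating cells, and rose by 0.46 ± 0.12 (adjusted p = 0.0110). Neither overlapped. Fas stood at 2.90 to 5.15 CPM in control, against 2.18, 0.156 and 1.16 CPM in proliferating cells, where library 2 held 5 counts. The groups did not overlap, and Fas rose by 1.78 ± 0.68 (adjusted p = 0.0458). Plk2 stood at 38.3 to 76.0 CPM in control, against 41.6, 31.8 and 35.7 CPM in proliferating cells. Its groups overlapped, and it rose by 0.76 ± 0.24 (adjusted p = 0.0233).

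Cdkn1a stood at 57.8, 62.4, 51.1 and 84.3 CPM in differentiating control cells, against 53.4, 10.8 and 6.40 CPM in proliferating cells. Proliferating library 1 lay within the control range and the other 2 far below it. The difference was 1.46 ± 0.66 (adjusted p = 0.0810), and without proliferating library 1 it was 2.92 (adjusted p = 0.000173). The count of 7 also rests on single libraries. It was 4 without control library 1, control library 2 or proliferating library 3, where Mdm2, Fas and Plk2 lost their calls (adjusted p = 0.0553 to 0.102), and 8 without proliferating library 1. Fas lost its call also without control library 3 (0.0762) or 4 (0.0650), and Plk2 also without proliferating library 2 (0.0630).

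Mdm4 fell in differentiating control cells, to 25.7 ± 5.30 CPM against 161 ± 46.5 CPM in proliferating CG4 cells (SD, n = 4 and 3, -2.63 ± 0.24, adjusted p = 3.59e-05). Of 15 genes of p53 and its regulators 3 rose and 10 fell. The damage kinases Atm (-1.34 ± 0.10) and Prkdc (-1.64 ± 0.13) were among those that fell (adjusted p = 1.21e-05 and 1.70e-05). Among 25 other targets 4 rose and 6 fell. Gadd45a rose by 2.92 ± 0.21 (adjusted p = 1.10e-05), to 51.7 ± 11.4 CPM in control against 6.93 ± 0.394 CPM in proliferating cells. Ddb2, a DNA damage sensor, rose by 3.48 ± 0.32 (adjusted p = 4.31e-05), and Rrm2b, a ribonucleotide reductase subunit, fell by 2.54 ± 0.19 (adjusted p = 1.28e-05).

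Of 17 Bcl-2 and caspase genes 2 rose and 4 fell. The caspase inhibitor Xiap fell by 2.89 ± 0.22 (adjusted p = 1.38e-05), at 9.69 ± 2.34 CPM in control against 72.9 ± 10.0 CPM in proliferating cells. The killer gene Bcl2l11 (Bim) rose by 0.87 ± 0.15 (adjusted p = 0.00131). Of 18 cell cycle genes 17 fell, among them Mki67 (-3.09 ± 0.13) and Ccnb1 (-3.18 ± 0.13, adjusted p = 6.90e-07 and 5.56e-07). The exception, E2f1, rose by 3.56 (adjusted p = 9.49e-05), at 12.99 ± 2.87 CPM in control against 1.12 ± 0.551 CPM in proliferating cells. Astrocyte markers (5 of 6 measured) summed to 967 to 2817 CPM in the control libraries, against 109.9 to 281 CPM in proliferating ones. Neuron markers (6 of 6 measured) summed to 152 to 345 CPM in control, against 67.2 to 109 CPM in proliferating cells. Schwann cell markers (5 of 6 measured) summed to 838 to 1043 CPM, against 299 to 553 CPM in proliferating cells. Taken singly, 3 neuron markers rose, 1 fell and 2 did not pass, and 4 Schwann cell markers rose and 1 fell. Fibroblast and pericyte markers (3 of 7 measured) summed to 8.17 to 21.3 CPM in control, against 1.91 to 5.51 CPM in proliferating cells. None of these sums overlapped. The astrocyte marker Aldh1l1 was at 0 in all 3 proliferating libraries, and no other measured marker of these lists was at 0 in a whole group. The part of such cells in the target rises was not tested.

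In primary oligodendroglia, differentiating and proliferating cells were compared without a vector and at 1 read length. All 8 targets measured passed the test, 4 of them higher after TMM (with library totals Mdm2 and Ccng1 turned lower) and 4 lower, beside 84.8% of 12310 genes that changed in either direction, 41.5% higher and 43.3% lower. At that background, passing the test says little about these genes, which differed among themselves in size and direction. Plk2 and Aen fell most. Plk2 (ENSRNOG00000011951) stood at 32.1, 32.9, 31.4 and 32.6 CPM in differentiating cells, against 457, 463, 462 and 472 CPM in proliferating cells. The 2 groups are far apart with little spread in either, and Plk2 fell by 3.81 ± 0.04 (adjusted p = 1.61e-13). Aen stood at 44.9, 45.4, 37.1 and 35.5 CPM in differentiating cells, against 148, 144, 146 and 143 CPM in proliferating cells, and fell by 1.79 ± 0.07 (adjusted p = 9.84e-10). Bax stood at 149.7, 137, 133 and 135 CPM in differentiating cells, against 199, 184, 191 and 185 CPM in proliferating cells. It fell by 0.41 ± 0.05 (adjusted p = 7.64e-06), again with no overlap.

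Cdkn1a fell in primary cells, by 0.92 ± 0.15 (adjusted p = 0.000196). It stood at 191, 182, 114 and 114 CPM in differentiating cells, against 285, 287, 297 and 293 CPM in proliferating cells. Differentiating libraries 1 and 2 lay apart from 3 and 4, while the proliferating libraries were close together. Over all genes the differentiating libraries form these same 2 pairs, with a chi-square per degree of freedom of 8.45 between 1 and 2, 1.77 between 3 and 4 and 29.3 to 37.1 across them. Its difference was -1.303 without libraries 1 and 2, and -0.58 without 3 and 4. Fas showed the pairs as well, at 7.40, 7.24, 3.13 and 2.65 CPM in differentiating cells, against 1.88, 2.69, 1.96 and 2.21 CPM in proliferating cells. The groups of Fas overlapped. Its rise of 1.29 ± 0.32 (adjusted p = 0.00293) was 0.45 without libraries 1 and 2 and 1.80 without 3 and 4.

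Phlda3 rose by 1.17 ± 0.10 (adjusted p = 5.56e-07), at 201, 179.7, 142 and 148 CPM in differentiating cells, against 79.2, 70.7, 80.4 and 76.1 CPM in proliferating cells. Every differentiating library lay above every proliferating one, and the direction held after TMM, RLE and with library totals (0.66). The directions of Mdm2 and Ccng1 depended on the scaling. After TMM, Ccng1 stood at 554, 628, 486 and 479 CPM in differentiating cells, against 411, 451, 426 and 436 CPM in proliferating cells, and was higher by 0.35 ± 0.08 (adjusted p = 0.00119). Mdm2 stood at 120.3, 132, 98.8 and 98.6 CPM, against 89.6, 99.4, 97.1 and 93.5 CPM in proliferating cells, and was higher by 0.28 ± 0.09 (adjusted p = 0.00981). The groups of Mdm2 overlapped, with differentiating libraries 3 and 4 inside the range of the proliferating libraries. With library totals in place of TMM the median of all genes was -0.52, rather than -0.02, and both were lower, Ccng1 by -0.15 (adjusted p = 0.0435) and Mdm2 by -0.22 (adjusted p = 0.0142). Under that scaling 27.8% of the called genes were higher, against 48.96% after TMM.

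Of 15 genes of p53 and its regulators 3 rose and 10 fell with primary differentiation, and the ribosomal proteins Rpl5 and Rpl11, which bind Mdm2, fell by 0.94 ± 0.03 and 0.94 ± 0.04 (adjusted p = 4.28e-10 and 8.43e-10). Mdm4 was higher by 0.31 ± 0.11 (adjusted p = 0.0219) after TMM and lower by -0.19 (adjusted p = 0.184) with library totals. Among 24 other targets 7 rose and 12 fell. Gadd45a rose by 3.94 ± 0.07 (adjusted p = 2.08e-12), to 283 ± 26.8 CPM against 19.0 ± 0.740 CPM. Dram1, a lysosomal protein of autophagy, fell by 3.08 ± 0.13, and Cd82 by 1.72 ± 0.07 (adjusted p = 1.18e-09 and 1.17e-09).

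Of 17 Bcl-2 and caspase genes 9 rose and 7 fell in primary cells. Bok, a relative of Bax, fell by 2.73 ± 0.06, and Bid, which carries death receptor signals to mitochondria, fell by 1.42 ± 0.06 (adjusted p = 1.49e-11 and 9.97e-10). All 18 cell cycle genes tested fell, by 1.48 to 2.51. Markers of other cells moved in the same libraries. Microglia markers (3 of 10 measured) summed to 17.98 to 24.6 CPM in differentiating primary cells, against 510.2 to 526 CPM in proliferating ones. Fibroblast and pericyte markers summed to 9.77 to 20.1 CPM in differentiating, against 126 to 153 CPM in proliferating cells. Astrocyte markers ran the other way, at 1271 to 2393 CPM against 196 to 207 CPM in proliferating cells, as did Schwann cell markers, at 818 to 908 CPM against 573 to 623 CPM in proliferating cells. Neuron markers summed to 181 to 191 CPM in differentiating, against 299.8 to 314 CPM in proliferating cells, and of 5 tested singly 1 rose and 4 fell. Which cells carried Plk2, Aen, Cdkn1a or Bax was not tested.

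**Figure D4:**
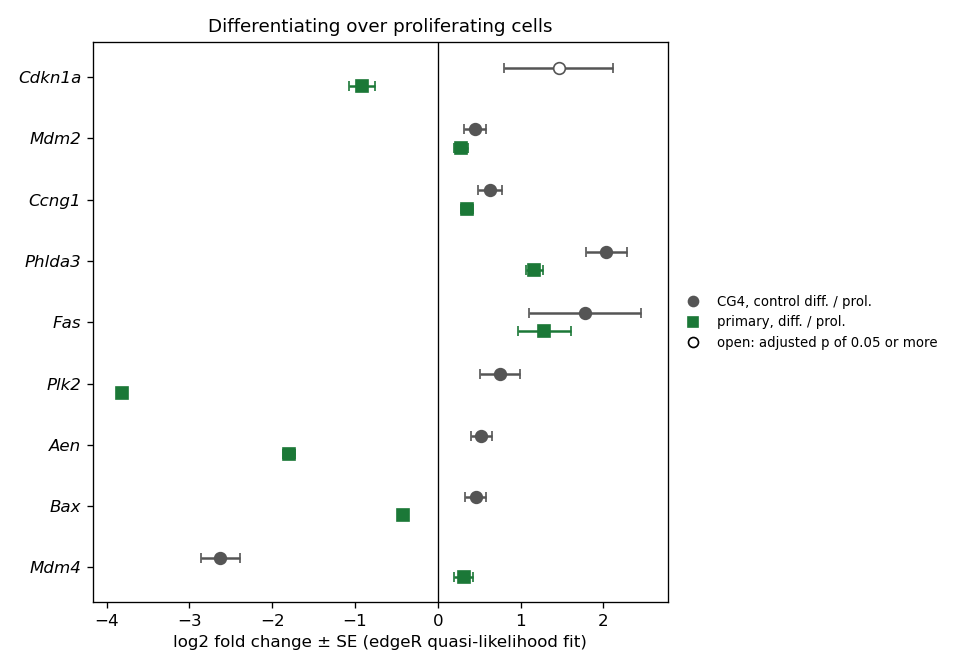
Log2 fold change ± SE (edgeR's quasi-likelihood fit) of the 8 target genes measured in every library and Mdm4, for differentiating control over proliferating CG4 cells (circles) and for differentiating over proliferating primary cells (squares), with filled symbols for an adjusted p under 0.05. Plk2 (0.76 in CG4 and -3.81 in primary cells), Aen, Bax and Cdkn1a lie on opposite sides of 0 in the 2 cell sources, and Phlda3 and Fas lie above 0 in both.

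The difference of the 2 differentiation responses, CG4 minus primary, was tested as an interaction in 1 fit. It passed in 5 of the 8 targets, all more positive in CG4 cells, beside 69.3% of 13207 genes that passed in either direction and 33.8% that were more positive (35.4% more negative). Plk2 differed most (4.61 ± 0.25, adjusted p = 1.02e-09), followed by Cdkn1a (2.41 ± 0.69, adjusted p = 0.00594) and Aen (2.36 ± 0.13, adjusted p = 1.45e-09). Bax differed by 0.92 ± 0.12 (adjusted p = 9.38e-06). Phlda3, which rose in both sources, rose more in CG4 cells (0.91 ± 0.26, adjusted p = 0.00632). Mdm2 (0.21 ± 0.16, adjusted p = 0.263), Ccng1 (0.32 ± 0.16, adjusted p = 0.0970) and Fas (0.54 ± 0.72, adjusted p = 0.522) did not pass. Without differentiating primary libraries 1 and 2, Mdm2 and Ccng1 passed as well (0.40 and 0.47, adjusted p = 0.0446 and 0.0252). With library totals they also passed (0.68 and 0.78, adjusted p = 0.00104 and 0.000334), where the all-gene median was 0.43 and 66.4% of called genes were more positive rather than 48.8%. Cdkn1a gave a difference of 1.96 to 3.87 when each library was left out in turn, the highest without proliferating CG4 library 1.

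For Mdm4 the difference of the responses was -2.90 ± 0.27 (adjusted p = 2.27e-07). Of the 15 regulators 6 were more positive and 7 more negative in CG4 cells, and of 25 other targets 9 and 5. Rrm2b differed by -3.80 ± 0.20 (adjusted p = 7.31e-10) and Ddb2 by 3.38 ± 0.30 (adjusted p = 1.78e-07). Of 17 Bcl-2 and caspase genes 6 were more positive and 3 more negative, among them Bid (1.72 ± 0.11) and Bok (2.05 ± 0.16) with adjusted p of 6.83e-09 and 2.80e-08. Of 18 cell cycle genes 11 were more negative in CG4 cells and 2 more positive. Cell source, vector and, in proliferating CG4 cells, read length are not separated by this term.

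As a description, the mean profile of the 9 targets (mean z-score of log2 CPM, prior count 2) was followed over the 12 differentiating CG4 libraries. Mdm2 (Pearson r = 0.91), Phlda3 (0.85), Fas (0.83) and Ccng1 (0.82) lay close to a mean that each helps to form, Aen (0.50) and Cdkn1a (0.46) less so, and Plk2 (0.02), Bax (-0.08) and Zmat3 (-0.24) hardly or not at all. Among 10465 other named genes that averaged 5 CPM or more, Csrnp1 (0.99), Capn2 (0.98) and Dclk1 (0.98) were among the 4 most like it. Over all 23 libraries and 8 targets, Akirin2 (0.97), Flnc (0.93), Zfp703 (0.92) and Sla (0.92) were most like the mean. The libraries share groups and scaling, so these values rank profiles within this design and carry no test.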

How the data were processed

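RNA-seq of 23 rat libraries was analysed from raw counts per gene, which the authors deposited with 1 library per file. Per the submitters' processing notes, Trimmomatic 0.36, STAR 2.5.2b and featureCounts (Subread 1.5.2) were used with build rn6. The sources used here give no parameters, annotation release or strand setting, so overlapping and antisense genes are uncertain. For each factor the authors deposited a comparison table holding log2 fold changes, p-values and normalized signal. These tables gave the gene names and the few values credited to them.

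The main test was the two-sided quasi-likelihood test of edgeR 4.0.16 (R 4.3.3) after TMM and filterByExpr, with Benjamini-Hochberg adjustment and a threshold of 0.05. A single fit held the 12 differentiating CG4 libraries, and the primary, the CG4 differentiation and the interaction comparison each had their own. Levels come from 1 TMM scaling of the 15219 genes in every file. Genes not in every file held 8.24% to 10.5% of the counts of differentiating CG4 libraries. The targets and gene lists were chosen with earlier results of these data known. Text names the 9 targets, Mdm4, the introduced genes, up to 3 called genes per list and comparison with the smallest adjusted p, and the 4 genes most like the targets' mean. Apaf1, E2f1 in CG4 cells and the marker sums fall outside that rule and were chosen after their values were seen. Some genes that the rule picks are not reported here.

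Same-numbered differentiating CG4 libraries deviated together from their group means (correlations of 0.208 to 0.666 for Zfp488 and control, 0.148 to 0.540 for Nkx2.2 and control and 0.191 to 0.537 for Zfp488 and Nkx2.2). Their numbers were therefore treated as pairs in the fits with a replicate block. No replicate pair was as close as counting noise alone (chi-square per degree of freedom of 1.77 to 265). Alternatives were RLE size factors, library totals, no filter on low counts, DESeq2 1.42.0, the replicate block, other sets of libraries or genes and leaving out each library. Tested on simulated data, the procedure recovered 83% of genes changed by 1 on the log2 scale for Zfp488 and for Nkx2.2 over control. It recovered 84% for Zfp488 over Nkx2.2, 97% for primary differentiation, 53% for CG4 differentiation and 48% for the interaction. The simulated libraries were drawn independently, without the shared deviations of same-numbered libraries, and only genes above about 1 CPM were changed. Recovery in the real libraries can therefore differ from these rates. Promoters are RefSeq sequences of GRCr8, a later build than that of the counts, and were matched by symbol.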

Additional observations from a re-analysis of the deposited data

Results flagged for a closer look

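For 5 of the 8 targets measured in all groups, the response to differentiation differed between CG4 and primary cells by the test of the difference itself. Over all genes 69.3% of 13207 passed that test, so passing it says little about these targets. Cell source, vector and read length are not separated by it. On the log2 scale, CG4 minus primary, the differences were 4.61 for Plk2, 2.41 for Cdkn1a, 2.36 for Aen, 0.92 for Bax and 0.91 for Phlda3. Plk2, Aen and Bax rose in CG4 cells and fell in primary cells. Cdkn1a fell in primary cells, and its difference in CG4 cells (1.46) did not pass. Phlda3 rose in both. Of 43 sets of 4 libraries (a gene in a group), 0 held a library apart from the others by Dixon's criterion, which chance alone would meet in about 1 of 20 sets.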

How the results depend on the processing

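The 4 rises with Zfp488 (Cdkn1a, Mdm2, Ccng1, Phlda3) and the 2 falls with Nkx2.2 (Fas, Aen) kept their direction and their call under every alternative run, including each library left out. Counts over all genes moved more. Against 1339 genes called with Zfp488, DESeq2 gave 2136 and the replicate block 3576. Against 1567 with Nkx2.2 the block gave 3876, and against 3741 between the factors 6276. Leaving out 1 library gave 458 to 1509 genes with Zfp488 (lowest without Zfp488 library 4), 924 to 2302 with Nkx2.2 (lowest without Nkx2.2 library 4) and 4 to 8 of the 8 targets in CG4 differentiation. With the replicate block the targets called between the factors were 6 rather than 4.

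Directions that turned were those of differences near 0, and those set by the scaling. Without a library they ran from -0.12 to 0.18 for Plk2 with Zfp488, and from -0.085 to 0.084 for Ccng1 and -0.38 to 0.049 for Phlda3 with Nkx2.2. Between the factors they ran from -0.12 to 0.025 for Bax and -0.16 to 0.00672 for Zmat3. Ccng1 with Nkx2.2 was 0.000600 with only the 8 libraries compared and 0.060 with library totals. In primary cells library totals, an alternative chosen after the data were seen, turned Mdm2 to -0.22, Ccng1 to -0.15 and Mdm4 to -0.19. With library totals, 49.2% of genes called with Zfp488 were higher rather than 65.2%, and 72.2% with Nkx2.2 rather than 57.7%. Outside differentiating CG4 cells the numbers did not pair libraries (correlations of -0.02 to 0.06 in primary and -0.10 to 0.01 between control and proliferating CG4 cells). In CG4 differentiation the block, with control library 4 left out, called 5 rather than 7 targets, gained Cdkn1a (adjusted p = 0.0463) and lost Fas (0.0744), Plk2 (0.0502) and Bax (0.0838). It changed no call of a target in primary cells or in the interaction. Counts of Fas ran as low as 5 in a library (proliferating CG4 library 2, 0.156 CPM), so its value there has a wide counting error. The cause of these shifts was not tested.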
